A study of Mus musculus with 7 samples.

Results

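Tubulins are the subunits of microtubules, the gamma-tubulin complex starts new microtubules, and kinesins are the motors that walk along them or take apart their ends. The genes for these proteins were taken by symbol from a table of RNA sequencing in mouse oocytes: names that start with Tuba, Tubb, Tubd, Tube or Tubg, names made of Tubgcp and a number, and names made of Kif, a number and at most 1 letter, with 3 pseudogene names left out. The rule found 57 of the 22877 genes in the table, made up of 19 tubulins, 5 genes of the gamma-tubulin complex and 33 kinesins. The study compared oocytes with and without Mfn1, which encodes mitofusin 1, a GTPase that fuses outer mitochondrial membranes, and the comparison asks how the oocyte transcriptome differs when the gene is lost. The Mfn1-/- group came from females with floxed Mfn1 alleles (Mfn1 flox/flox) and a Cre driven by the Zp3 promoter, which is active in growing oocytes, so that granulosa cells keep the gene. The WT group came from littermates, all animals were 8 weeks old and of the C57BL/6J strain, and the sources used here do not say whether the WT animals carried a floxed allele or Cre. Each library was made from 5 pooled oocytes freed from secondary follicles and was amplified with the Smart-Seq2 protocol. The sample labels list 4 libraries of WT and 3 of Mfn1-/- oocytes, whereas the text that describes the series gives both genotypes the same number.

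In a growing oocyte, microtubules form a network without centrioles, hold organelles such as mitochondria in place and are the tracks along which motor proteins carry them. When meiosis resumes, the same tubulin builds a spindle whose poles are gathered from many small organizing centres, and the transcripts for it are largely made and stored beforehand, during growth. Alpha- and beta-tubulin are each encoded by several genes with nearly the same protein product, and the choice among these isotypes differs between tissues.

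The table gives 1 mean of normalized counts per genotype and gene, and no values of single libraries. The p-values and FDR of the authors' own comparison, which it also holds, were not used. Whether any difference below exceeds the spread between replicates is therefore not given, and no difference was tested. The scale of these means was read from their low end. The genes used were those at the lowest value of 0.01 in the other genotype. Their mean less 0.01 was multiplied by the number of libraries and by the length of the gene with its introns. Between 150 and 240, the values or steps at which most of these products gathered were 179.5, 204 and 217 in Mfn1-/-. In WT they were 193, 205, 217 and 225. The search was set to return 1 step per library, so the number of steps is not a result. Among genes with a large share of intron, 18 of 21 in Mfn1-/- and 13 of 14 in WT lay within 0.5% of a step, against 1 of 33 and 3 of 23 when the exon length was used. The deposited mean therefore behaves as a number of fragments per kb of gene, introns included, scaled to the size of the library, with 0.01 added to every value. A step was taken as what 1 fragment is worth in a library. Products within 0.5% of a step came from 104 genes in Mfn1-/- and 73 in WT, but 11 and 6 genes lay as close to 0.5 of a step and 25 and 28 to 1.5 steps, so a smaller unit occurs as well and all fragment numbers are approximate.

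**Figure D1:**
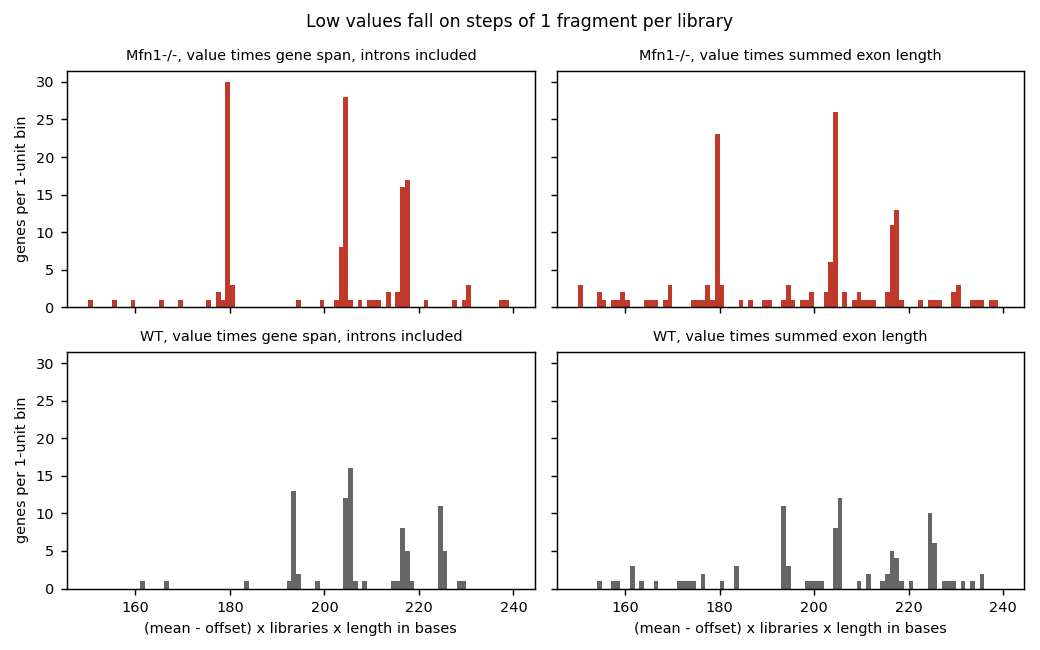
Genes per 1-unit bin of the product of the genotype mean less 0.01, the number of libraries and the gene's length in bases, for genes at the lowest value in the other genotype, with the gene span at left and the summed exon length at right. With the span the products gather near the 3 values taken as steps in Mfn1-/- (top) and the 4 in WT (bottom), numbers set in advance. With the exon length more of them lie between the peaks.

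A long gene with many introns has a small value on this scale even when its transcript is abundant. Levels of different genes are therefore compared per kb of exon, that is, the deposited mean less 0.01, times the gene span and divided by the summed exon length. That length joins the exons of all annotated transcripts of a gene, so ranks and shares between genes depend on it. The ratio of the genotype means, with the 0.01 removed from both, needs no length, and its 95% Clopper-Pearson interval was computed from the approximate number of fragments behind each mean. These intervals cover counting error only, since amplified fragments are not independent molecules and differences between libraries are not in them. Over the 10831 genes with at least 100 fragments in both genotypes together, the median ratio of Mfn1-/- to WT was 1.07, so a ratio of 1 lies slightly below the middle of the genes.

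Mfn1 itself had a deposited mean of 0.0577 in Mfn1-/- and 0.616 in WT, from about 36 and 576 fragments. It was 12.7-fold lower in Mfn1-/- oocytes (interval 9.01 to 18.2), which is the direction the labels call for.

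Tubulin and kinesin genes were first counted past 2-fold. With a mean of at least 1 over the libraries and 0.1 added to both means, 25 of the 57 genes could be counted, of which 0 were more than 2-fold higher and 1, Tuba3b, more than 2-fold lower in Mfn1-/- oocytes. Over all 6226 genes with such a mean, 5.49% were more than 2-fold higher and 3.24% more than 2-fold lower. The minimum mean leaves out long genes and the added 0.1 shrinks the differences of genes with small means, so the count was repeated over genes with at least 100 fragments and with nothing added and the 0.01 removed, a rule chosen after the values were seen. Of 42 such genes, 1 was more than 2-fold higher, Tuba1a, and 3 were more than 2-fold lower, Tuba3b, Kif5c and Kif1b. Over all 10831 genes the shares were 5.84% and 5.43%. Kif5c and Kif1b are past 2-fold on this scale and not with 0.1 added. Smaller differences were common, with 24 of the 42 higher and 18 lower, against 6260 and 4533 of the 10831. After the median of all genes was subtracted the split was 19 higher and 23 lower.

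**Figure D2:**
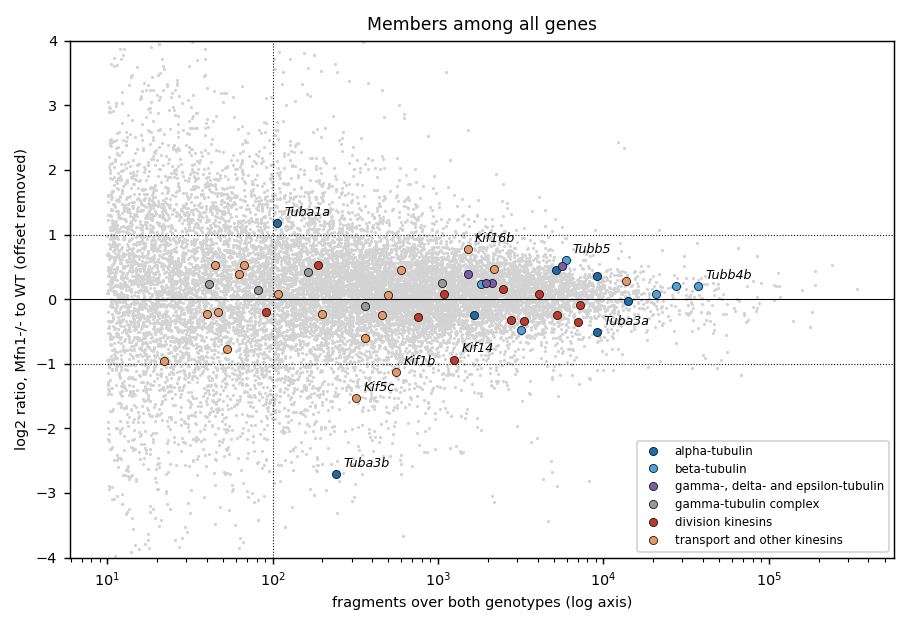
Log2 ratio of the Mfn1-/- mean to the WT mean, with the added 0.01 removed, against the number of fragments over both genotypes on a log axis, for genes with fragments in both genotypes and at least 10 in all (grey, values beyond 4 not drawn) and for the tubulin and kinesin genes among them (coloured by role). The dotted lines mark 100 fragments and a 2-fold difference, and Tuba1a, Tuba3b, Kif5c and Kif1b lie past both.

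Alpha-tubulins divided into genes that were higher and genes that were lower, with a total that hardly differed. Summed over the 8 genes, the level per kb of exon was 497 in Mfn1-/- and 511 in WT oocytes. The Tuba3 genes made up 28.9% of this sum in Mfn1-/- and 40.9% in WT, while the Tuba1 genes made up 46.4% and 34.0%. Per kb of exon, the most abundant alpha-tubulin gene in both genotypes was Tuba3a, which is otherwise known for its expression in the testis. That order depends on the length used. Tuba4a had about 6077 fragments in Mfn1-/- and 7896 in WT, against 3243 and 5848 for Tuba3a. The exons of Tuba4a over all annotated transcripts come to 3701 bases, while its transcript used for the window comparison below has 2083. For Tuba3a both lengths are 1509 bases. Ranks and shares by transcript length were not computed.

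Tuba3a (chr6:125278274-125286042, minus strand, GRCm38) had a deposited mean of 27.7 in Mfn1-/- and 39.4 in WT, a ratio of 0.703 (interval 0.673 to 0.734) from about 3243 and 5848 fragments. Tuba3b (chr6:145615757-145621479, plus strand) lies 20.3 Mb away on the same chromosome and had means of 0.312 and 1.99, from about 26 and 217 fragments. It was 6.56-fold lower in Mfn1-/- oocytes (interval 4.37 to 10.3), the lowest ratio among the 42 genes. On the scale with 0.1 added its log2 fold change was -2.34.

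Both Tuba3 genes were lower, and they are near-copies of each other. Their coding sequences have 1353 bases each, of which 1312 are the same, and all 41 bases that differ are at the third codon position. Because reads of 75 bases can fit both copies where they are identical, 19.9% of the 75-base windows of the Tuba3a transcript and 18.9% of those of Tuba3b are shared with another gene, and the longest run without a difference was 155 coding bases. The paper gives the reads as paired, and the windows leave the mate of a read out of account, so fewer fragments may fit both copies. How such reads were assigned is not given in the sources used here, and how far this moved the value of either copy was not tested. The stretch of 120 coding bases with the most differences, positions 217 to 336 of the coding sequence in GENCODE M21, is given 5′ to 3′ on the coding strand, to show how closely spaced the bases that separate the copies can be. It crosses from the second to the third exon, and capitals mark the 13 positions at which the copies differ.
Tuba3a: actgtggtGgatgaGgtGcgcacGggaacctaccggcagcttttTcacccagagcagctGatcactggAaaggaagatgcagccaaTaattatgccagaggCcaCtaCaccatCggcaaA
Tuba3b: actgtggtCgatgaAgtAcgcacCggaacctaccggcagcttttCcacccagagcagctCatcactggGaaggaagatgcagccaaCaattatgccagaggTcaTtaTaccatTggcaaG

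The 3 Tuba1 genes, which encode the alpha-tubulins of most dividing cells and of neurons, were higher in Mfn1-/- oocytes. Tuba1c had deposited Mfn1-/- and WT means of 36.9 and 28.7, a ratio of 1.29 (interval 1.23 to 1.34). Tuba1b had means of 56.9 and 41.6, a ratio of 1.37 (interval 1.29 to 1.45). Tuba1a had means of 1.18 and 0.529 from about 68 and 38 fragments, and its ratio of 2.25 (interval 1.50 to 3.47) is the least precise of the 3. The genes lie close together on chromosome 15, at chr15:98931425-98934565 (Tuba1b), chr15:98949837-98953703 (Tuba1a) and chr15:99029891-99038110 (Tuba1c). Per kb of exon the WT level was 103 for Tuba1c, 69.7 for Tuba1b and 1.11 for Tuba1a, so the gene with the largest ratio contributed least.

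The values of the Tuba1 genes cannot be assigned to 1 copy with certainty. Of the 75-base windows of their transcripts, 71.9% were shared with another gene for Tuba1b, 68.3% for Tuba1a and 56.7% for Tuba1c. These shares take each read alone, and the share for read pairs was not computed. Tuba1a and Tuba1b have 98.3% of their coding bases in common, Tuba1b and Tuba1c 98.4%.

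Tuba4a, Tubal3 and Tuba8 are the remaining alpha-tubulins. Tuba4a, which shares no 75-base window with another gene on the transcript strand, had deposited Mfn1-/- and WT means of 71.5 and 73.3, a ratio of 0.975 (interval 0.943 to 1.01). Its exons overlap those of Stk16 on the opposite strand, and the library protocol does not mark the strand. Tubal3, a divergent alpha-tubulin, had means of 2.57 and 3.04, a ratio of 0.845 (interval 0.764 to 0.933). Tuba8 had means of 0.0119 and 0.0145, which is about 0 and 1 fragments, so no difference was detectable at this depth.

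Beta-tubulins with at least 100 fragments were 5 higher and 1 lower in Mfn1-/- oocytes, or 4 and 2 with the median of all genes subtracted, where 57.8% of all genes were higher before subtraction. The level per kb of exon summed over the 7 genes was 1486 in Mfn1-/- and 1320 in WT, 2.99 and 2.58 times the sum of the alpha-tubulins. Tubb4b held 37.9% of the beta-tubulin sum in Mfn1-/- and 37.3% in WT. Tubb2a held 36.0% and 35.3%, and Tubb6 held 17.2% and 18.3%. Among the smaller shares, that of Tubb5 was 4.33% in Mfn1-/- and 3.20% in WT, and that of Tubb3 was 2.75% and 4.29%. Tubb4b, Tubb2a and Tubb6 therefore led in the same order in both genotypes, and in WT oocytes Tubb4b ranked 85, Tubb2a 88 and Tubb6 212 among all genes by level per kb of exon.

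**Figure D3:**
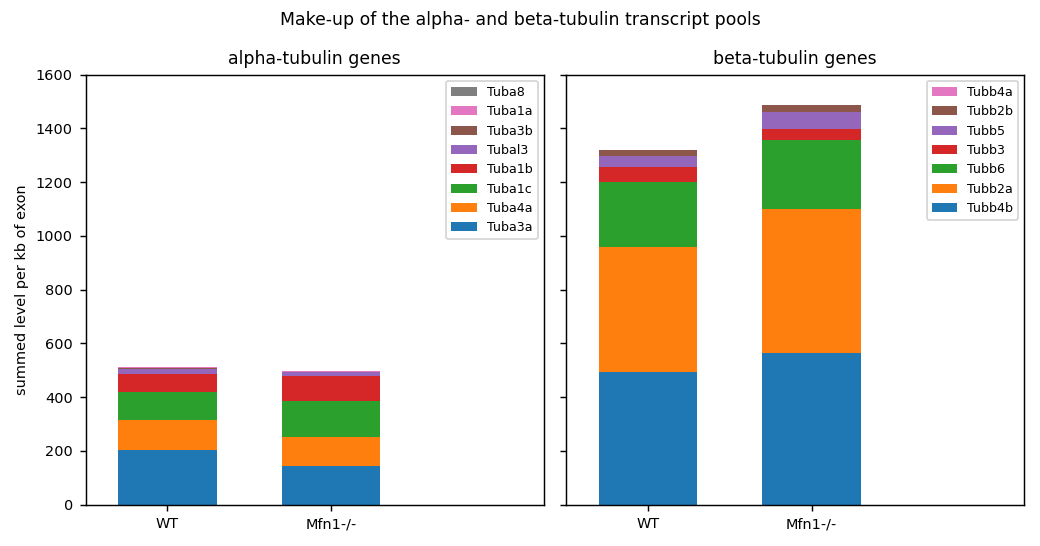
Level per kb of exon of each alpha-tubulin gene (left) and beta-tubulin gene (right), stacked, in WT and Mfn1-/- oocytes (authors' genotype means, rescaled). The alpha-tubulin sums are 511 and 497 with a smaller Tuba3a layer in Mfn1-/-, and the beta-tubulin sums are 1320 and 1486.

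Tubb4b, a beta-tubulin of cilia and of many dividing cells, had deposited Mfn1-/- and WT means of 463 and 404, a ratio of 1.15 (interval 1.12 to 1.17). Tubb2a had means of 231 and 201, also a ratio of 1.15 (interval 1.12 to 1.18). Tubb2b lies 48.7 kb from Tubb2a on chromosome 13 and had means of 15.6 and 13.3, a ratio of 1.17 (interval 1.07 to 1.29). These values are uncertain between copies as well, since 43.2% of the windows of Tubb2a and 32.2% of those of Tubb2b were shared, mostly with each other, and 37.8% of those of Tubb4b, mostly with the pseudogene Tubb4b-ps1. That pseudogene had means of 35.7 and 29.7, a ratio of 1.20, close to that of its parent gene.

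Tubb5, Tubb3 and Tubb6 share no 75-base window with another gene, and their ratios lay furthest apart among the beta-tubulins with at least 100 fragments. Tubb5, the most widely expressed beta-tubulin, had deposited Mfn1-/- and WT means of 48.8 and 32.0, a ratio of 1.53 (interval 1.45 to 1.61). Tubb3, known as the neuronal beta-tubulin, had means of 7.22 and 10, a ratio of 0.722 (interval 0.670 to 0.776), and was the beta-tubulin that was lower. Tubb6 had means of 51.9 and 48.9, a ratio of 1.06 (interval 1.03 to 1.09), which turns to slightly lower when the median of all genes is subtracted. Tubb4a, a beta-tubulin of the nervous system, was at the lowest value of 0.01 in Mfn1-/- and at 0.0233 in WT, about 2 fragments, so it was not detectable at this depth.

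The tubulins that do not form the microtubule wall were higher in Mfn1-/- oocytes, 4 of 4, also after the median of all genes was subtracted, against 57.8% of all genes before and 49.99% after. Gamma-tubulin sits at the minus end of a new microtubule, and the mouse has a pair of neighbouring genes for it. Tubg2 had deposited Mfn1-/- and WT means of 33.8 and 23.6, a ratio of 1.43 (interval 1.36 to 1.51). Tubg1 lies 29.5 kb away on chromosome 11 and had means of 9.70 and 8.18, a ratio of 1.19 (interval 1.08 to 1.30). The coding sequences of the pair are 93.3% identical, and 7.86% of the windows of Tubg2 and 7.64% of those of Tubg1 were shared. Per kb of exon Tubg2 was the more abundant of the pair in WT oocytes, at 79.1 against 23.4.

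Delta- and epsilon-tubulin are known from centrioles, which mouse oocytes lose during oogenesis. Tubd1 had deposited Mfn1-/- and WT means of 3.04 and 2.57, a ratio of 1.18 (interval 1.09 to 1.29). Tube1 had means of 2.78 and 2.13, a ratio of 1.31 (interval 1.18 to 1.45). Exons of Tube1 overlap those of Ccn6 on the opposite strand, and the library protocol does not mark the strand.

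Over the 16 tubulins with a mean of at least 1, the median log2 fold change was 0.21, against 0.16 over all 6226 genes, with 11 higher and 5 lower, against 4069 and 2130. With the median of all genes subtracted, 10 were higher and 6 lower. The deposited means of the 19 tubulins had a log2 ratio of sums of 0.19, of 0.18 without Tubb4b and of 0.14 when summed per kb of exon.

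The gamma-tubulin complex, whose Tubgcp subunits hold gamma-tubulin in a ring, had 0 of its 5 genes at a deposited mean of 1 or more. Tubgcp2, a core subunit, had Mfn1-/- and WT means of 0.838 and 0.706, a ratio of 1.19 (interval 1.05 to 1.35). That interval holds the median of all genes, 1.07. The exons of Tubgcp2 overlap those of Zfp511 on the opposite strand, a gene with a ratio of 1.175. Tubgcp4 had means of 0.208 and 0.158, a ratio of 1.34 (interval 0.968 to 1.83). Tubgcp5 had means of 0.281 and 0.302, a ratio of 0.928 (interval 0.748 to 1.15).

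Intervals of Tubgcp4 and Tubgcp5 include 1, so differences in these genes were not detectable at this depth. Tubgcp3, the other core subunit, had means of 0.0533 and 0.0492, about 38 and 43 fragments, with an interval of the ratio from 0.705 to 1.77. Tubgcp6 had means of 0.0625 and 0.0547, about 20 and 21 fragments, with an interval from 0.621 to 2.34. The 5 genes had a median log2 fold change of 0.07 with 0.1 added to the means, and the 3 with at least 100 fragments had a median log2 ratio of 0.25. Per kb of exon, Tubgcp2 was the most abundant in WT oocytes at 7.12, and Tubgcp6 the least at 0.0965.

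**Figure D4:**
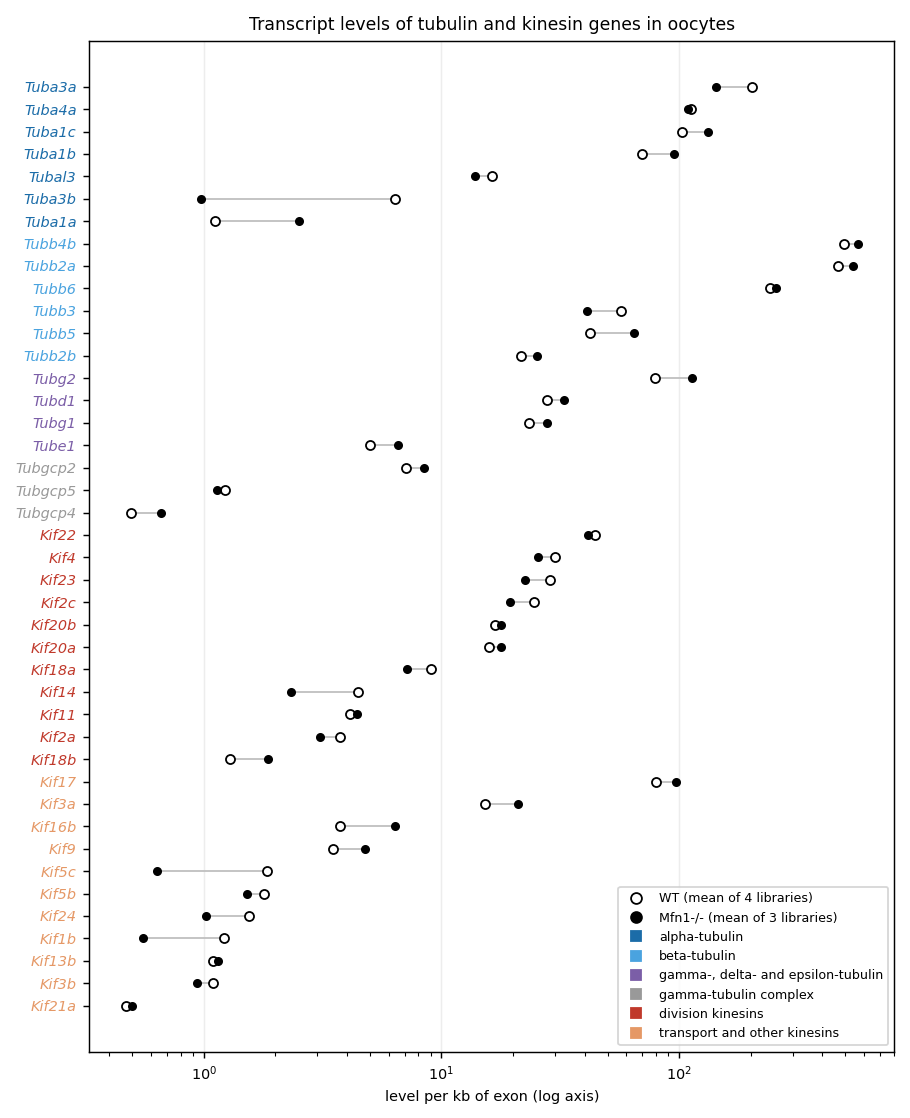
Level per kb of exon (log axis) of the 42 tubulin and kinesin genes with at least 100 fragments, in WT (open circles, authors' mean of 4 libraries) and Mfn1-/- oocytes (filled circles, authors' mean of 3 libraries), ordered by role and WT level. Tubb4b has the highest WT level, 492, Kif17 is the highest kinesin, 80.1, and Tuba3b has the widest gap between genotypes.

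Kinesins that act in cell division were more often lower than higher in Mfn1-/- oocytes. Of the 12 genes put in this class from their known roles, 11 had at least 100 fragments, and 7 of these were lower and 4 higher. With the median of all genes subtracted the split was 9 lower and 2 higher, against 5414 and 5414 over all genes. The median ratio of the 11 was 0.847, against 1.07 over all genes, and 7 of the 11 had intervals wholly below that median, as did 3614 of the 10831. Summed per kb of exon, the class had a level of 163 in Mfn1-/- and 183 in WT oocytes. The class was drawn up after the values were known, so its counts are a description.

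Kif14, which works with citron kinase at the midbody in cytokinesis, had the lowest ratio of the class. Its deposited means were 0.381 in Mfn1-/- and 0.720 in WT, and it was 1.91-fold lower (interval 1.69 to 2.16) from about 365 and 884 fragments. The gene spans 65.2 kb, and with a mean below 1 it was not among the 25 genes counted first.

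Kif23, a subunit of the centralspindlin complex that bundles the midzone of the spindle, had Mfn1-/- and WT means of 5.74 and 7.35, a ratio of 0.781 (interval 0.744 to 0.819). Kif2c, which takes apart microtubule ends at kinetochores, had means of 3.69 and 4.64, a ratio of 0.795 (interval 0.740 to 0.853). Kif18a, which damps the movements of chromosomes at the spindle equator, had means of 1.17 and 1.46, a ratio of 0.800 (interval 0.740 to 0.864). These 3 genes thus differed by nearly the same factor. Kif2a, a relative of Kif2c that acts at spindle poles, had means of 0.322 and 0.389, a ratio of 0.823 (interval 0.709 to 0.955).

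The chromokinesins, which bind chromosome arms, were lower as well. Kif4 had Mfn1-/- and WT means of 1.39 and 1.64, a ratio of 0.847 (interval 0.801 to 0.895). Its exons overlap those of Pdzd11 on the opposite strand, a gene with means of 41.6 and 50.7 and a ratio of 0.821, so the fragments of the pair cannot be told apart where they overlap. Kif22, the most abundant kinesin of the class per kb of exon, had means of 13.8 and 14.7, a ratio of 0.939 (interval 0.896 to 0.984).

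The rest of the class had ratios on either side of the median of all genes. Kif20a, a motor of the central spindle, had Mfn1-/- and WT means of 8.92 and 7.98, a ratio of 1.12 (interval 1.03 to 1.21), and its log2 fold change of 0.16 becomes 0.00 when the median of all genes is subtracted. Kif20b, its relative, had means of 2.32 and 2.19, a ratio of 1.06 (interval 0.996 to 1.13). Kif11, the motor that pushes spindle poles apart, had means of 0.731 and 0.689, a ratio of 1.06 (interval 0.940 to 1.20). For Kif20b and Kif11 the intervals hold both 1 and the median of all genes, so no difference was detectable at this depth. Kif18b, a partner of Kif2c at microtubule ends, had means of 0.349 and 0.245, a ratio of 1.44 (interval 1.07 to 1.94). Kif15, a motor that can stand in for Kif11, had about 37 and 54 fragments, a ratio of 0.870 (interval 0.556 to 1.34).

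Kinesins of transport and other roles went both ways. Of the 21 genes in this class, 11 had at least 100 fragments, 6 of them higher and 5 lower, or 4 and 7 after the median of all genes was subtracted. Over all genes 57.8% were higher before subtraction and 49.99% after. Kif17, a motor of dendrites and cilia, was the most abundant kinesin of all per kb of exon, at 96.8 in Mfn1-/- and 80.1 in WT oocytes. Its deposited means were 8.62 and 7.13, a ratio of 1.21 (interval 1.17 to 1.25). It is annotated across Sh2d5 on the same strand, but that gene had about 7 and 1 fragments.

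Kif3a, a subunit of the heterotrimeric motor that builds cilia, had Mfn1-/- and WT means of 2.19 and 1.59, a ratio of 1.38 (interval 1.27 to 1.50). Kif9, best known from the sperm flagellum, had means of 0.437 and 0.323, a ratio of 1.36 (interval 1.16 to 1.61). Kif16b, which moves early endosomes, had means of 0.213 and 0.129, a ratio of 1.71 (interval 1.54 to 1.89), the highest ratio among the 22 kinesins with at least 100 fragments. Kif16b, like Kif5c, Kif1b and Kif24 among the genes that follow, is named here because of its value.

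Kif5c and Kif1b, known as motors of mitochondria or other membrane cargo, were the kinesins past 2-fold among the 22 with at least 100 fragments, where 5.43% of all genes were as much lower, and 0 kinesins were past 2-fold by the rule with 0.1 added. Kif5c had Mfn1-/- and WT means of 0.0393 and 0.0947, from about 69 and 252 fragments, and was 2.89-fold lower (interval 2.20 to 3.82). Kif1b had means of 0.0847 and 0.173, from about 148 and 409 fragments, and was 2.18-fold lower (interval 1.80 to 2.65). Kif5b, the widely expressed conventional kinesin, had means of 0.304 and 0.359, a ratio of 0.842 (interval 0.696 to 1.02), which includes 1. Kif5a, the neuronal form, had about 5 fragments in Mfn1-/- and 0 in WT.

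Both Kif5c and Kif1b are long genes, of 155 and 131 kb, with low levels per kb of exon, 1.84 and 1.22 in WT oocytes. On the scale with 0.1 added to the means their log2 fold changes shrink to -0.48 and -0.56. Kif24, which acts at centriole ends, had means of 0.120 and 0.177, a ratio of 0.659 (interval 0.525 to 0.821).

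Kif13b, Kif3b and Kif21a complete the class above 100 fragments, with ratios of 1.05, 0.857 and 1.06 and intervals that include 1. The other 10 genes of the class, Kif5a among them, had from 5 to 67 fragments over both genotypes. Of the 9 kinesins with a mean of at least 1, 4 were higher and 5 lower, against 4069 and 2130 over all genes, with a median log2 fold change of -0.09. With the median of all genes subtracted, 2 were higher and 7 lower, since Kif20a and Kif20b turn. The deposited means of the 33 kinesins had a log2 ratio of sums of -0.03, which turns to 0.020 per kb of exon, where the sums were 300.0 in Mfn1-/- and 296 in WT.

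**Figure D5:**
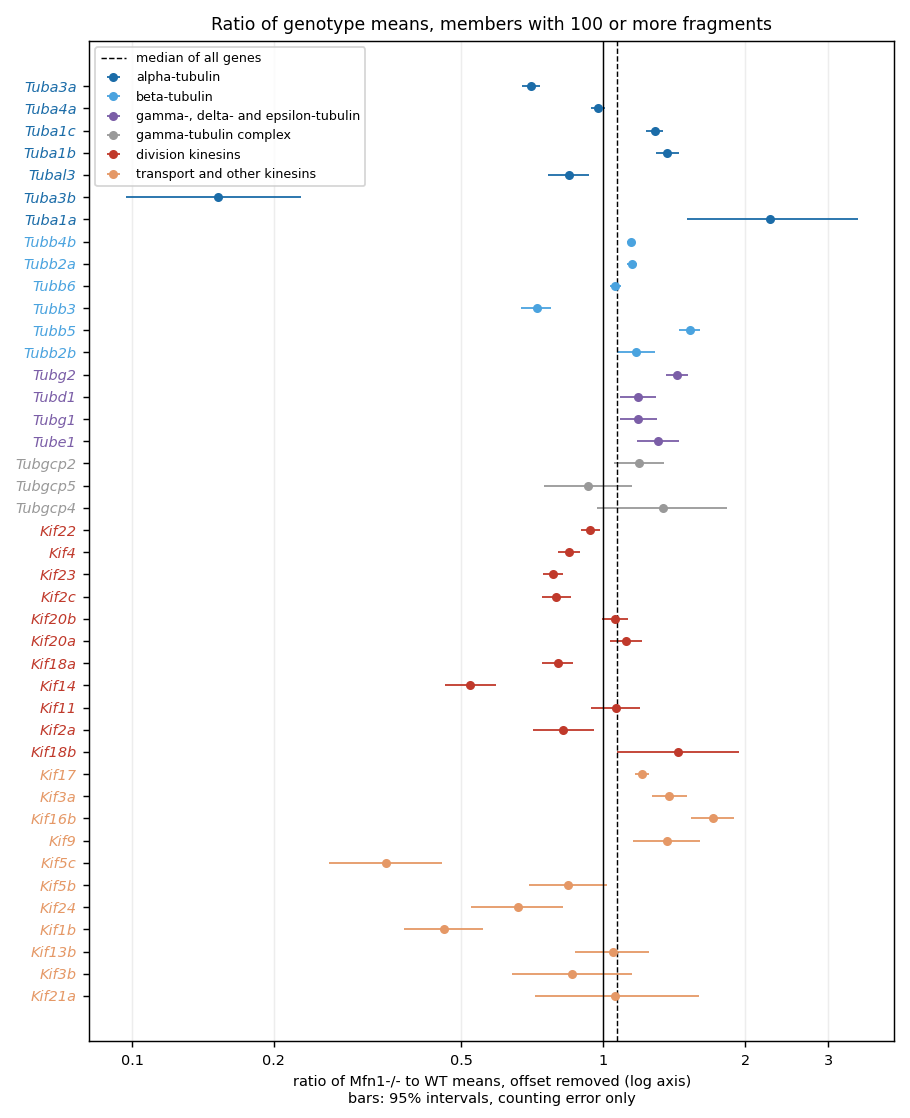
Ratio of the Mfn1-/- to the WT mean, with the added 0.01 removed (log axis), for the 42 genes with at least 100 fragments, coloured by role, with 95% Clopper-Pearson intervals that cover counting error only. The solid line is 1 and the dashed line the median of all genes, 1.07, and 7 of the 11 division kinesins have intervals wholly below it, as do 3614 of all 10831 genes with at least 100 fragments.

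Genes that work with tubulins and kinesins were counted from lists of known partners. For every list, the share over all genes with at least 100 fragments was 57.8% higher, or 49.99% with their median subtracted. The list of tubulin folding cofactors, which assemble the alpha- and beta-tubulin pair, held 7 genes, with Arl2 counted among them. Of the 7, 6 had at least 100 fragments, 5 of them higher and 1 lower, also with the median of all genes subtracted. The median ratio of the 6 was 1.25, against 57.8% higher and a median ratio of 1.07 over all genes. Tbcc had deposited Mfn1-/- and WT means of 76.9 and 51.7, a ratio of 1.49 (interval 1.37 to 1.61). Arl2, a small GTPase that works with the cofactors, had means of 39.6 and 31.3, a ratio of 1.27 (interval 1.21 to 1.32).

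Nucleation and pole proteins, 27 of 28 with at least 100 fragments, were 10 higher and 17 lower, or 7 and 20 with the median of all genes subtracted. Over all genes 57.8% were higher before subtraction and 49.99% after. The median ratio of the 27 was 0.848, against 1.07 over all genes and 0.847 for the division kinesins. Tacc3, a spindle protein that acts together with clathrin and Ckap5, had Mfn1-/- and WT means of 54.5 and 63.5, a ratio of 0.858 (interval 0.842 to 0.875). Haus3, a subunit of the augmin complex that branches microtubules, had means of 18.6 and 25.9, a ratio of 0.718 (interval 0.692 to 0.745). Of the 27, 0 were past 2-fold, against 5.84% higher and 5.43% lower over all genes.

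Tubulin-modifying enzymes, 18 of the 25 found with at least 100 fragments, were 10 higher and 8 lower, or 7 and 11 with the median of all genes subtracted, with a median ratio of 1.02. Tpgs2, a subunit of the polyglutamylase, had Mfn1-/- and WT means of 12.0 and 16.1, a ratio of 0.745 (interval 0.724 to 0.767). Svbp, the partner of the enzymes that remove the last tyrosine of alpha-tubulin, had means of 8.04 and 8.99, a ratio of 0.894 (interval 0.813 to 0.985). Ttll12 was the enzyme past 2-fold among the 18, against 5.84% of all genes higher and 5.43% lower, chosen by its value, at a ratio of 2.13 (interval 1.56 to 2.96). Ttll7, also chosen by its value and under 100 fragments, was 5.10-fold lower (interval 2.63 to 9.84) from about 12 and 74 fragments.

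Minus-end kinesins and kinesin partners, 11 of 14 with at least 100 fragments, were 6 higher and 5 lower, or 4 and 7 with the median of all genes subtracted, with a median ratio of 1.05. Rhot2, which ties mitochondria to kinesin, had Mfn1-/- and WT means of 2.02 and 1.62, a ratio of 1.25 (interval 1.02 to 1.53). Rhot1, its relative, had means of 1.03 and 1.16, a ratio of 0.887 (interval 0.814 to 0.967). The partners past 2-fold among the 11, both higher as were 5.84% of all genes and both chosen by their values, were the light chain Klc4 at 2.51 (interval 1.76 to 3.69) and Kifap3, the third subunit of the Kif3a motor, at 2.69 (interval 1.87 to 3.86).

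Dynein and dynactin, the motor towards the minus end and its activator, had 29 of 31 genes with at least 100 fragments, 20 higher and 9 lower, with a median ratio of 1.09. With the median of all genes subtracted the split was 16 and 13, and for the 19 whose mean reached 1 it turned from 13 higher and 6 lower to 6 and 13. Dynll1, a light chain, had Mfn1-/- and WT means of 269 and 214, a ratio of 1.26 (interval 1.23 to 1.29). Dynlt1b, another light chain, had means of 42.6 and 43.8, a ratio of 0.973 (interval 0.933 to 1.01). Past 2-fold among the 29, against 5.84% higher and 5.43% lower over all genes, and chosen by their values, were the dynactin subunit Actr1b at 3.92 (interval 3.04 to 5.07) and Dync1i1, an intermediate chain that was 3.49-fold lower (interval 2.22 to 5.92).

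Plus-end and lattice proteins, 25 of 34 with at least 100 fragments, were 11 higher and 14 lower, with a median ratio of 0.939. Stmn1, which holds back free tubulin, had Mfn1-/- and WT means of 23.8 and 21.1, a ratio of 1.13 (interval 1.06 to 1.20). Mapre1, which tracks growing ends, had means of 3.17 and 3.22, a ratio of 0.984 (interval 0.920 to 1.05). Map7d2, chosen by its value, was past 2-fold among the 25 at 2.38 (interval 1.74 to 3.31), where 5.84% of all genes were as much higher.

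Markers of the cells a library could hold were summed per kb of exon. The 12 oocyte markers summed to 11170 in Mfn1-/- and 9657 in WT, 10 higher and 2 lower, with Zp3 the most abundant at 4563 and 3925. Of the 12 granulosa cell markers, 11 were found, and they summed to 24.2 in Mfn1-/- and 42.2 in WT, with Esr2 the most abundant at 15.5 and 31.2. Cyp19a1 was at 1.69 in Mfn1-/- and 4.14 in WT, Nr5a2 at 1.75 and 3.22, and Inha at 4.15 and 2.11. The others, Amh, Foxl2 and Fshr among them, were at 0.549 or less in Mfn1-/- and 0.649 or less in WT. Granulosa markers with at least 100 fragments were 1 higher and 3 lower, the same direction as the division kinesins, and their part in those values was not tested. Whether the marker values come from granulosa cells was not tested either.

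Of the 8 markers of theca or stroma, 5 were found, and they summed to 0.306 in Mfn1-/- and 0.321 in WT, with Star the most abundant at 0.171 and 0.218. Of the 5 blood or immune markers, Cd68 was found, at a level of 11.7 in Mfn1-/- and 1.02 in WT, and was 11.4-fold higher (interval 7.43 to 17.8). Of the 5 markers of multiciliated epithelium, 3 were found, which summed to 0.447 and 0.805, led by Tekt1 at 0.262 in Mfn1-/- and by Dnah5 at 0.582 in WT. The marker sums other than that of the oocyte were far below the 2163 and 1966 of the 19 tubulins, but the granulosa sum was above the level of many single kinesins, such as Kif14 at 2.33 in Mfn1-/- and 4.47 in WT, and the part of other cells in the tubulin and kinesin values was not tested.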

How the data were processed

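The submitters' processing notes name cutadapt, FastQC and STAR, the paper names Cutadapt, STAR and the FASTX-Toolkit as the read filter, and both give the build GRCm38 (mm10). The authors counted reads per gene on an annotation whose version is not given in the sources used here and compared the genotypes with DESeq2. As deposited, the signal of a gene is given by the authors once per genotype, as the average over that genotype's libraries, and once as a total over all 7 libraries. Its columns of p-value, FDR, ratio and fold change hold the authors' own comparison and were not used. Columns with values of single samples that were not used: 0.

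Log2 fold changes were computed from the means after adding 0.1, for genes with a mean of at least 1, with a threshold of 2-fold. The ratio with the offset of 0.01 removed, at least 100 fragments over both genotypes, the level per kb of exon and the role classes were chosen after seeing the data. A genotype at the offset was set to 3 fragments, and such ratios are bounds. Fragment numbers come from the steps and the gene spans of GENCODE M21, which holds 21895 of the gene names once, all 57 tubulin and kinesin genes included. Transcripts were compared in windows of 75 bases, on the transcript strand only, and coding sequences by global alignment (biopython 1.88). The code ran in Python 3.11.15 with scipy 1.17.1, pandas 2.3.3, numpy 2.4.6 and, for the plots, matplotlib 3.10.9. The arithmetic of the conversion to fragments and of its intervals was checked on simulated data. That simulation drew independent fragments with the same steps, so it cannot show whether the steps or intervals fit the real libraries. The design named a per-library limma test for the case that library values were found, and it was not run.

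The genes, lists and markers were chosen with earlier results of these data known. The rule for named genes took all tubulins and genes of the gamma-tubulin complex, the 15 kinesins with the highest mean, kinesins with a mean of at least 1 past 2-fold, the 2 genes of each other list with the highest mean and those past 2-fold with a mean of at least 1, and Mfn1. Other genes named were chosen after their values were seen. Alternatives were other added values, minimum means, a fold threshold of 1.5, subtraction of the median of all genes, and sums without the most abundant gene.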

Additional observations from a re-analysis of the deposited data

How the results depend on the processing

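No paired analysis was possible because the table gives 1 mean per genotype, and for the same reason the runs without each library and with a replicate block were not run. Of 49 alternative values of the main results, 34 stayed within 1.5 times for a count or within 0.1 on the log2 scale, and 15 did not. The count more than 2-fold higher, 0, became 1 with a minimum mean of 0.1, with no minimum mean, with a fold threshold of 1.5 and with at least 100 fragments and the offset removed. The count more than 2-fold lower, 1, became 0 with a minimum mean of 5 and 3 with at least 100 fragments and the offset removed, which changes the filter and the scale together. With the median of all genes subtracted, the median log2 fold change went from 0.21 to 0.055 for tubulins, from 0.07 to -0.088 for the gamma-tubulin complex and from -0.09 to -0.25 for kinesins, and the log2 ratio of sums from 0.19 to 0.028 for tubulins and from -0.03 to -0.19 for kinesins, by construction. The median of the kinesins was 0.034 with a minimum mean of 5. The median of the gamma-tubulin complex, given over all 5 genes because none has a mean of 1, was 0.19 with no value added, 0.22 with a minimum mean of 0.1 and 0.25 with at least 100 fragments and the offset removed, and no gene was left with a minimum mean of 5. The cause of the moves other than by subtraction was not tested. Subtraction changed the sign of 3 of the 25 genes that reach a mean of 1, Kif20a, Kif20b and Tubb6, and the other added values changed 0. Depth limits the 15 genes under 100 fragments, for which only large differences could be seen.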

Other observations

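The 3 pseudogenes that the choice by symbol left out were also measured. Tubb4b-ps1 had a level per kb of exon of 35.7 in Mfn1-/- and 29.7 in WT oocytes, with 46.5% of its 75-base windows shared with another gene. Tubb4b-ps2 had levels of 2.53 and 1.28 from about 51 and 33 fragments. Tubb2a-ps2 had levels of 1.39 and 1.01 from about 28 and 26 fragments.

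Of the 57 tubulin and kinesin genes, 23 share exon bases with another annotated gene and 17 have a span that meets another gene of the table. Ratios of such neighbours did not always go the same way as that of the gene they overlap. They were close for Tubgcp2 and Zfp511, at 1.19 and 1.175, and for Kif4 and Pdzd11, at 0.847 and 0.821. Tubgcp4 had a ratio of 1.34, and its neighbours on the opposite strand, Trp53bp1 and Zscan29, had ratios of 0.761 and 1.33. Kif2a had a ratio of 0.823, and Dimt1, which overlaps it by 1229 bases on the opposite strand, had a ratio of 1.29. Tuba4a had a ratio of 0.975, and Stk16 on the opposite strand had a ratio of 1.63.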
